A study of Homo sapiens and Mus musculus with 33 samples.

Results

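The regions described here are the promoters of long noncoding genes in HCT116 cells, a human colon carcinoma line of epithelial origin. They were taken from the list of H3K18cr and H3K18ac peaks. A peak was included if it was narrower than 10 kb, lay within 1 kb of the start of a gene whose name begins with LINC, with AC or AL and a clone number, or with a clone prefix (RP, CTA, CTB, CTC, CTD), and lay more than 5 kb from the start of any gene with another kind of name. In all, 1110 of 40266 peaks (2.76%) met this rule, with the starts of 1138 genes in or within 1 kb of them. The cells had been treated with the vehicle DMSO or with 5 µM MS275 (entinostat) for 18 h. Each histone mark was assayed in 3 ChIP-seq libraries per treatment, with 1 input library per treatment, and RNA in 4 libraries per treatment. All groups were the same cell line, and the study's methods call the RNA libraries biological replicates. For ChIP of these cells the methods speak of fewer biological replicates than the libraries deposited per treatment and do not say which libraries came from separate cultures. Some may share one, so the ChIP p-values measure the spread between libraries, which may be technical. The ChIP libraries held 2236551 to 5730094 reads in peaks, of which 2.83% to 2.93% lay in the long noncoding promoters, and the RNA libraries held 35608533 to 53415604 counts.

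Long noncoding RNAs are transcripts that do not encode a protein. Many are spliced and polyadenylated like messenger RNAs, are present at low levels and differ strongly between cell types. Their promoters can be CpG-rich, shared with a divergent coding gene, or CpG-poor and close in character to enhancers. H3K18ac and H3K18cr are an acetyl and a crotonyl group on the same lysine of histone H3, both found at active start sites. Class I histone deacetylases, the enzymes that MS275 inhibits, can remove either group.

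The name rule was checked against the GENCODE 44 annotation of GRCh38. Of the 1138 genes, 644 (56.6%) could be matched by an identifier paired with the name in the deposited tables, and 586 of these (91.0%) were annotated as lncRNA. Another 28 were annotated as TEC, a class of unreviewed transcripts, 22 as protein coding and 8 as pseudogenes. The deposited gene starts did not cover all coding transcripts. Of the 1110 peaks, 254 lay within 5 kb of the start of a protein-coding transcript in the annotation, and 203 of them contained such a start. These 254 peaks go against the label of a long noncoding promoter, so the main results are given for them and for the other 856 peaks as well. By name, 757 genes carried an RP clone name, 139 an AC name, 108 a LINC name and 134 another prefix. Most peaks (1038) held a single gene start within reach, 68 held 2 and 4 held 3, and 798 contained the start itself. The peaks were spread over the chromosomes, from 0.909% of the 440 peaks of chromosome 21 to 5.17% of the 1277 peaks of chromosome 16.

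The start regions of 6 of these genes are shown because the results below turn on them. RP4-756H11.3 and LINC00630 lay at peaks with large falls of H3K18cr, LINC02595 (its GENCODE name, a clone name in the gene table) at the peak with the highest ratio of H3K18cr to input, RP11-845M18.7 at the peak with the most H3K18cr reads, LINC00657 had the most RNA counts, and LINC01516 lay at a peak where H3K18ac rose. Each sequence runs 5′ to 3′ on the strand of the gene in GRCh38, from 250 bases before the start given in the gene table to 50 bases from the start onwards. Capitals mark CpG dinucleotides. RP4-756H11.3 (chr7:66654288-66654587, plus strand) held 23 CpG, LINC00630 (chrX:102768911-102769210, plus) 10, LINC02595 (chrX:45851441-45851740, minus) 36, LINC00657 (chr20:36050911-36051210, minus) 23, RP11-845M18.7 (chr12:52279107-52279406, minus) 18 and LINC01516 (chr10:25112808-25113107, plus) 1.
RP4-756H11.3: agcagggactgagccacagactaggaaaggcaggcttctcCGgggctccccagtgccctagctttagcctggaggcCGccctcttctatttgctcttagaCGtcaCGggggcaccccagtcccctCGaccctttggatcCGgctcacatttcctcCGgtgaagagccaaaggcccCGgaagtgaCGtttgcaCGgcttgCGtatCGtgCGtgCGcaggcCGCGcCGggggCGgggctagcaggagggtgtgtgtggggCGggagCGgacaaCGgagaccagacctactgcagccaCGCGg
LINC00630: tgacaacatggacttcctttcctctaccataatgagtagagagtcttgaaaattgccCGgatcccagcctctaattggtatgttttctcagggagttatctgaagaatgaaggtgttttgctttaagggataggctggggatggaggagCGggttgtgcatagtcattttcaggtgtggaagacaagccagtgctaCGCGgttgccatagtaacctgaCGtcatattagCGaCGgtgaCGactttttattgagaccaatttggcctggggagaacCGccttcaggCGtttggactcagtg
LINC02595: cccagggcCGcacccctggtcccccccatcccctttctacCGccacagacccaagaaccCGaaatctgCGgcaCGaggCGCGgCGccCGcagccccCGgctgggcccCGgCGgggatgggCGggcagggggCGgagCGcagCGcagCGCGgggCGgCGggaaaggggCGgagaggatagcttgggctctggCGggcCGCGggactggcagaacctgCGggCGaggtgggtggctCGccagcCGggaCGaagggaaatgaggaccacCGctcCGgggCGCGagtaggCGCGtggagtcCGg
LINC00657: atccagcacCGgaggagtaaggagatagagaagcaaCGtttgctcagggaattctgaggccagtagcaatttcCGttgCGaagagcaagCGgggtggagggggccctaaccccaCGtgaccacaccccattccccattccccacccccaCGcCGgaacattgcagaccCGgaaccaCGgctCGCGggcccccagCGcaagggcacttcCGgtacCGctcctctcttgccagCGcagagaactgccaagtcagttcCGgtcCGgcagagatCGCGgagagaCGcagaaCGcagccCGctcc
RP11-845M18.7: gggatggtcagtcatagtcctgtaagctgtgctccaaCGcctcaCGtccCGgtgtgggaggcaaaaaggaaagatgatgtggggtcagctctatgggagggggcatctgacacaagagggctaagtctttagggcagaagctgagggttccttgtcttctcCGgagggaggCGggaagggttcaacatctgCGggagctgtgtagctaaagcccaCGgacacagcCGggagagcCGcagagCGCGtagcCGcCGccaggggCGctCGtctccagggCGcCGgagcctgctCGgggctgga
LINC01516: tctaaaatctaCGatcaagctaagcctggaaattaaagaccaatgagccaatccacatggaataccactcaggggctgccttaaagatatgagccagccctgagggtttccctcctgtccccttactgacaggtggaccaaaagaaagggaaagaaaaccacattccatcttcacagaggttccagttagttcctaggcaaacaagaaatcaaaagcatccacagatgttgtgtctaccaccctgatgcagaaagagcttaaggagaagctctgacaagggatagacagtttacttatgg

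The contrast between these sequences held across the set. The long noncoding promoters spanned a wide range of CpG content and lay, in the median, between promoters of other-named genes and peaks away from any gene start. CpG content is given as the observed over the expected number of CpG in the peak, which is near 1 where CpG is not depleted. The median was 0.29 in the 1110 long noncoding promoters, 0.27 in the 856 peaks away from a coding start, 0.50 in the 254 near a coding start, 0.64 in 10357 promoters of other-named genes and 0.19 in 23853 peaks more than 5 kb from any gene start. Peaks with a GC share above 50% and a CpG ratio above 0.6, as in CpG islands, made up 13.5% (150) of the long noncoding promoters, 8.53% of those away from a coding start and 48.9% of the promoters of other-named genes. The median width was 2400 bp, against 2550 bp at other-named genes and 1500 bp away from gene starts.

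Short motifs were counted on both strands within 150 bases either side of the gene start, where these letters can overlap each other. GGGCGG, the core of GC boxes, was found at 28.5% of the 1138 long noncoding starts, against 37.8% of all 35792 gene starts examined. CCGGAAG, an ETS-type motif, was found at 5.71% against 8.32% of all starts, and TGACG, the core of CRE-type motifs, at 18.9% against 21.9%. TATAAA was found at 9.40% against 12.2% and CCAAT at 30.2% against 33.6%. The 12640 other long noncoding names had 17.1% for GGGCGG, 4.04% for CCGGAAG, 15.6% for TGACG, 17.0% for TATAAA and 34.3% for CCAAT. The other-named genes had 50.2%, 10.9%, 25.7%, 9.67% and 33.4% in the same order. Of the starts shown, RP4-756H11.3 held the GC box core, the ETS-type motif and the CRE-type core. LINC00630 held the CRE-type core and CCAAT, LINC02595 the GC box core and LINC00657 the ETS-type motif. Neither RP11-845M18.7 nor LINC01516 held any of these motifs within 150 bases of the start. The LINC01516 stretch printed above does hold CCAAT, but further upstream than this window. Starts at peaks called lower for H3K18cr with MS275 (described below) held GGGCGG in 45.7% of 315 cases, against 21.7% of 819 starts at peaks that were not called. CCGGAAG was found at 8.89% and 4.40% of them and TGACG at 29.2% and 15.0%, while TATAAA (9.52% and 9.40%) and CCAAT (30.2% and 30.4%) had nearly equal shares. Their median CpG ratio in this window was 0.63 against 0.30. A match describes these letters only.

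With DMSO, the long noncoding promoters had lower median levels of both marks relative to input than other promoters and higher ones than peaks away from gene starts. The log2 ratio of the mean scaled read count to input (1 read added to each) had a median of 1.17 for H3K18cr (quartiles 0.82 and 1.57) and 1.09 for H3K18ac. At promoters of other-named genes the medians were 1.66 and 1.75, and at peaks away from gene starts 0.93 and 0.87. The 254 long noncoding promoters near a coding start had medians of 1.52 and 1.53, and the 856 others 1.09 and 1.01. With MS275 the medians at the long noncoding promoters were 1.00 and 0.94, and at promoters of other-named genes 1.17 and 1.19. Per kb of peak, the median H3K18cr level was 36.9 scaled reads at the long noncoding promoters and 56.6 at other promoters. Each treatment had only 1 input library, so the ratios have no replicate error on the input side.

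The 5 peaks with the most H3K18cr reads with DMSO were those of RP11-845M18.7, RP11-66B24.5, RP5-1148A21.3, CTD-2231E14.2 and RP11-331F4.5. They were wide (6600 to 9900 bp), and 4 of them contained a coding start, of KRT86, PTP4A1, TPM4 and BCAR1. KRT86 encodes a hair keratin, TPM4 a tropomyosin, PTP4A1 a tyrosine phosphatase and BCAR1 an adaptor protein of focal adhesions. The exception, the peak of RP11-66B24.5, lay 107992 bp from the nearest coding start. It held 835, 778 and 845 scaled H3K18cr reads with DMSO. Relative to input, the highest peak was that of LINC02595 on chromosome X, with 278, 278 and 178 scaled reads against 23.5 in input (18 reads before scaling), a ratio of 10.4. This gene is annotated as lncRNA and lay 593942 bp from the nearest coding start. It was followed by RP11-432J24.5 (8.18), RP11-452K12.7 (7.93), AC006116.17 (7.53) and RP11-982M15.8 (7.29). RP11-452K12.7 and AC006116.17 shared their peaks with coding starts of RRP12, a ribosome biogenesis factor, and ZSCAN5A, a zinc finger protein. LINC02595, RP11-432J24.5 and RP11-982M15.8 lay more than 10 kb from a coding start.

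MS275 was compared with DMSO to ask how inhibition of class I deacetylases changes the distribution of H3K18cr. H3K18cr fell at 285 of the 1105 long noncoding promoters tested (25.8%) and rose at none (limma, adjusted p under 0.05). Over all 40026 peaks tested, 23% were called lower and 0.232% higher, so the share at long noncoding promoters was near that of the whole list. By an unadjusted p under 0.05, 397 of the 1105 differed in either direction, against 12763 of all 40026 peaks. The median log2 scaled read count over the promoters was 6.67, 6.62 and 6.36 in the DMSO libraries and 6.26, 6.26 and 6.37 in the MS275 libraries, so DMSO replicate 3 lay within the range of MS275. The median log2 change was -0.25, against -0.20 over all peaks. Near a coding start 118 of 254 peaks (46.5%) were called lower, with a median of -0.43, and 167 of 851 (19.6%) elsewhere, with a median of -0.20. At promoters of other-named genes 59.0% were called lower, with a median of -0.58, and at peaks away from gene starts 7.60%, with a median of -0.07. These are relative read counts and do not give the total amount of the mark in the cells.

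The direction depends on how the libraries are scaled. With TMM scaling over the peaks in place of the authors' factors, the change of every peak moved by 1 constant and the median of all peaks from -0.20 to 0.04. Of the long noncoding promoters 126 were then called lower and 22 higher, against 11.1% lower and 1.78% higher among all peaks. The peaks away from a coding start held 63 of these falls and 19 of these rises, with a median of 0.04. Relative to the median of all peaks, which this constant does not affect, the median of the long noncoding promoters lay 0.05 lower, and that of the 254 peaks near a coding start 0.23 lower. The count of 285 falls became 181 without DMSO replicate 1, 178 without MS275 replicate 1 and 166 without MS275 replicate 2. DESeq2 on the whole reads behind the values called 87 lower and 2 higher, and edgeR 131 lower and 26 higher.

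**Figure D1:**
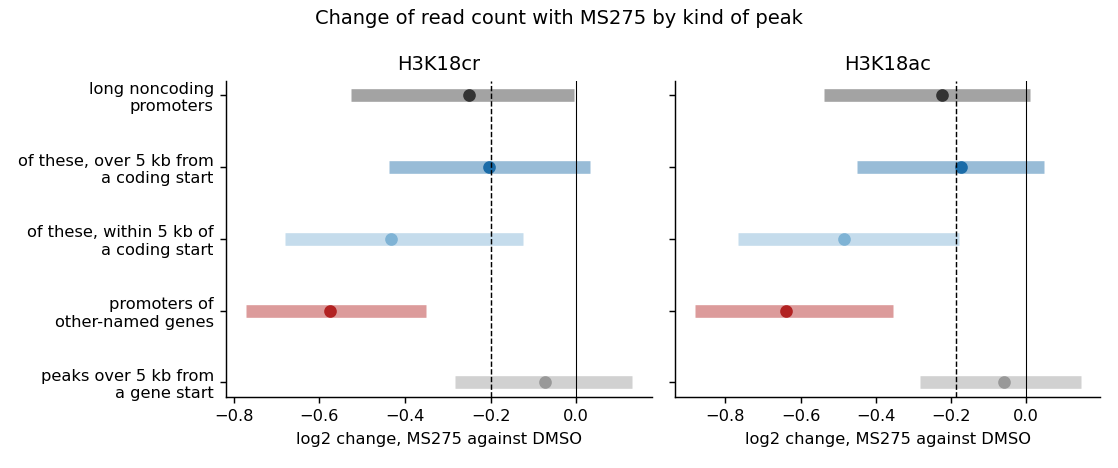
Log2 change of the read count with MS275 against DMSO (x axis) for 5 kinds of peak (y axis), H3K18cr left and H3K18ac right, where points are medians, bars run from the lower to the upper quartile and the dashed line is the median of all peaks. For H3K18cr the long noncoding promoters have a median of -0.25, between promoters of other-named genes at -0.58 and peaks away from gene starts at -0.07, while with TMM scaling, not plotted, it is -0.01.

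The largest falls of H3K18cr among the peaks with at least 50 scaled reads on average were at RP4-756H11.3, AC093495.4, LINC00630, RP11-313P13.5 and RP11-452K12.7. The peak of RP4-756H11.3, whose CpG-rich start is shown above, held 173, 175 and 209 scaled reads with DMSO and 59.6, 73.6 and 82.8 with MS275. Its log2 change was -1.37 ± 0.18 (SE), with an adjusted p of 1.7e-05 by limma. All MS275 libraries lay below all DMSO libraries, and input was 37.8 and 36.8. This peak (chr7:66653401-66655350) was 14545 bp from the nearest coding start, that of KCTD7.

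AC093495.4 held 285, 322 and 371 scaled H3K18cr reads with DMSO and 116, 112 and 181 with MS275, a log2 change of -1.29 ± 0.18. LINC00630 held 75, 60.1 and 114 with DMSO and 34.9, 32.6 and 32.3 with MS275, a log2 change of -1.27 ± 0.23. The treated libraries of LINC00630 were close to each other, while DMSO replicate 3 stood above the other DMSO libraries. Both peaks lay more than 10 kb from a coding start. RP11-313P13.5 (log2 change -1.26 ± 0.23) and RP11-452K12.7 (-1.25 ± 0.17) contained coding starts, of POM121, a nuclear pore protein, and RRP12. These 5 falls kept an adjusted p under 0.05 with TMM scaling and without any single library.

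**Figure D2:**
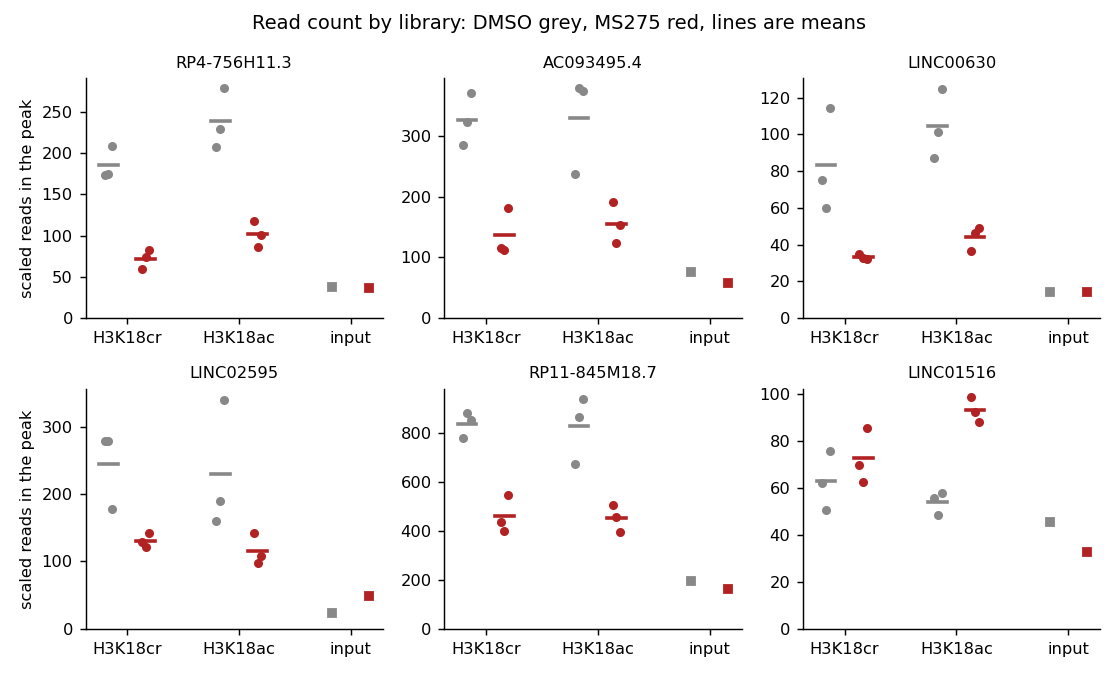
Scaled reads in the peak (y axis) at 6 long noncoding promoters for H3K18cr, H3K18ac and input (x axis), with a point per library, DMSO in grey, MS275 in red, and a line at the mean of 3 libraries. The treated libraries lie below all DMSO libraries for both marks at 5 of the promoters, while at LINC01516 the H3K18ac libraries with MS275 (88.0 to 98.7) lie above those with DMSO (48.3 to 57.9).

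H3K18ac fell at 169 of 1109 long noncoding promoters tested (15.2%) and rose at 2 (limma), against 16.3% lower and 0.264% higher among all 40122 peaks tested. The median log2 change was -0.22, against -0.19 over all peaks. Near a coding start 82 of 254 (32.3%) were called lower, with a median of -0.48, and elsewhere 87 of 855 (10.2%), with a median of -0.17. Promoters of other-named genes were called lower in 47.0% of cases, with a median of -0.64. With TMM scaling the median of all peaks moved from -0.19 to 0.06, and 178 long noncoding promoters were called lower and 65 higher, against 16.5% and 4.49% of all peaks. Of these, 89 falls and 58 rises were away from a coding start. The median of the long noncoding promoters was then 0.02, 0.04 below that of all peaks.

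The H3K18ac count moved with single libraries. The 169 falls became 281 without DMSO replicate 1, 74 without DMSO replicate 2, 96 without DMSO replicate 3, 48 without MS275 replicate 2 and 52 without MS275 replicate 3. With the replicate number as a block 23 falls remained, although the numbers are not shown to pair the ChIP libraries. Among the 1104 peaks tested for both marks, 147 were called lower in both, which is 51.6% of the 285 falls of H3K18cr and 88.0% of the 167 H3K18ac falls. These shares were 72.1% and 90.6% at promoters of other-named genes, and 40.8% and 73.1% at peaks away from gene starts.

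The largest H3K18ac falls were at RP11-452K12.7, RP11-792A8.4, CTD-2336O2.1, CTD-2213F21.3 and RP11-631N16.2. At RP11-452K12.7 the scaled H3K18ac reads were 429, 584 and 609 with DMSO and 210, 165 and 169 with MS275, a log2 change of -1.57 ± 0.25 (adjusted p of 2.2e-06 by limma). The peaks of RP11-792A8.4, CTD-2336O2.1 and CTD-2213F21.3 contained coding starts of RABGEF1, CLN8 and NUBPL, and their log2 changes were -1.37, -1.32 and -1.32. RABGEF1 acts in endosomal trafficking, CLN8 in export from the endoplasmic reticulum and NUBPL in assembly of respiratory complex I. The peak of RP11-631N16.2, which also held the starts of LINC01465 and RP11-631N16.4, was 134452 bp from a coding start and changed by -1.32 ± 0.25. It held 413, 490 and 649 scaled H3K18ac reads with DMSO and 266, 200 and 160 with MS275, with no overlap between the groups.

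Both H3K18ac rises were at CpG-poor peaks far from coding starts. The peak of LINC01516 held 55.5, 48.3 and 57.9 scaled H3K18ac reads with DMSO and 98.7, 92.4 and 88.0 with MS275. Its log2 change was 0.79 ± 0.25 (adjusted p of 0.0134 by limma), and its CpG ratio was 0.21. Its H3K18cr reads overlapped between treatments (log2 change 0.22 ± 0.21). The call was lost without DMSO replicate 2, MS275 replicate 2 or MS275 replicate 3, with adjusted p of 0.124, 0.0894 and 0.0690. RP11-67K19.3, which had fewer reads than the limit for named peaks and is named after its values were seen, held 21.5, 24.1 and 32.2 with DMSO and 46.7, 36.3 and 45.1 with MS275. Its log2 change was 0.73 ± 0.27 and its CpG ratio 0.11. This call too was lost when a library was left out, with adjusted p of up to 0.189.

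Whether the marks responded differently was tested by the interaction of mark and treatment. None of the 1110 long noncoding promoters passed (limma, 0 of 40266 peaks, 0% called), and 20 of them had an unadjusted p under 0.05, against 739 of all peaks. The median difference, H3K18cr change minus H3K18ac change, was 0.01 with a median SE of 0.32. A difference had to be well above this SE to be called, so smaller ones were not detectable. The 2 marks were also compared with each other in DMSO. No long noncoding promoter passed there either (0 of 40052 peaks, 0% called), and 75 had an unadjusted p under 0.05, against 2217 of all 40052 peaks. With TMM scaling 2 of them passed, where 105 of all peaks were called lower and 13 higher. The median log2 difference, H3K18cr minus H3K18ac, was 0.06 at long noncoding promoters, 0.03 over all peaks and -0.08 at promoters of other-named genes.

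The fall with MS275 varied with CpG content, which the choice of the peaks did not use. The long noncoding promoters were divided into quartiles of the CpG ratio, at 0.20, 0.29 and 0.49. In the lowest quartile 17 of 277 peaks (6.14%) were called lower for H3K18cr, with a median log2 change of -0.05. The share was 10.5% in the second, 30.9% in the third (median -0.34) and 55.4% (154 of 278, median -0.57) in the highest. H3K18ac followed the same order, with 1.81%, 5.78%, 14.1% and 39.2% called lower and medians from -0.02 to -0.57. TMM scaling adds 1 constant to the change of every peak, so it cannot alter this order and only moves the point from which a rise or fall is counted. The H3K18cr medians were then 0.19, 0.14, -0.10 and -0.33, and the H3K18ac medians 0.22, 0.12, -0.07 and -0.32. In the lowest quartile 3 peaks were then called lower and 8 higher for H3K18cr, and 6 lower and 34 higher for H3K18ac. In the third, 36 were called lower and 5 higher for H3K18cr, and in the highest 76 lower and 1 higher for H3K18cr and 104 lower and 5 higher for H3K18ac. The ratio of H3K18cr to input with DMSO also rose with the CpG ratio, from a median log2 value of 0.92 to 1.61.

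The order held without the peaks near a coding start. Among the 856 others, the shares called lower for H3K18cr were 5.49%, 8.89%, 28.5% and 46.7% over the same ranges. The input libraries had median log2 changes between -0.09 and -0.01 in the 4 ranges of all long noncoding promoters. In the lowest range the input change (-0.06) was at least as large as that of the marks, and in the highest (-0.09) it was well below it. In the lowest range the medians were -0.05 at long noncoding promoters, -0.06 at promoters of other-named genes and -0.01 at peaks away from gene starts. In the highest range they were -0.57, -0.62 and -0.45. These shares describe the peaks of 6 libraries per mark, and peaks are not independent replicates.

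**Figure D3:**
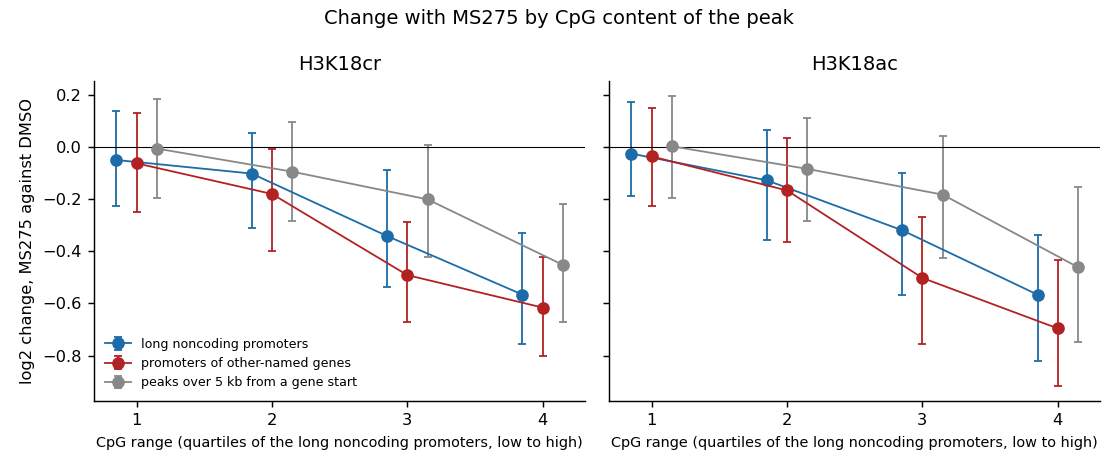
Median log2 change with MS275 against DMSO (y axis) over 4 ranges of CpG content (x axis, quartiles of the long noncoding promoters applied to all kinds of peak), H3K18cr left and H3K18ac right, with bars from the lower to the upper quartile. At the long noncoding promoters the H3K18cr median falls from -0.05 in the lowest range to -0.57 in the highest, and the other kinds of peak follow the same order, while with TMM scaling, not plotted, the lowest range turns to 0.19.

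Position and name divided the set further, where 23% of all peaks were called lower for H3K18cr. Peaks that contained the gene start were called lower for H3K18cr in 32.3% of cases (258 of 798), against 8.79% (27 of 307 tested) where the start lay outside the peak but within 1 kb. Their median CpG ratios were 0.34 and 0.23. LINC-named promoters were called lower in 34.0% of cases (36 of 106) and those with RP clone names in 23.4% (172 of 735). The 540 tested peaks of annotated lncRNA genes away from coding starts, the strictest reading of the label, were called lower in 21.5% of cases (116). Of the 73 peaks away from coding starts that resembled CpG islands, 32 (43.8%) were called lower. On chromosome X, 7 of 15 tested peaks were called lower. At the edge of the 1 kb limit, 26 peaks in the last 100 bp within it had a median H3K18cr change of -0.03, and 39 peaks in the first 100 bp beyond it had one of -0.02. At the edge of the 5 kb limit, 18 peaks with an other-named start 5 to 6 kb away had a median of -0.38, and 39 peaks left out with such a start 4 to 5 kb away -0.37.

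RNA of most of these genes was low or not detected at this depth. Of the 1138 genes, 372 had no count in any of the 8 libraries, and 222 (19.5%) passed the filter on low counts. For comparison, 10.3% of the other long noncoding names and 61.1% of other-named genes passed. Together the 1138 genes held 0.118% to 0.140% of all counts, with DMSO (0.123% to 0.139%) and MS275 (0.118% to 0.140%) overlapping. Of the 222 genes, 89 overlapped an other-named gene on either strand. The libraries were made with a directional kit, but whether strand was used in counting them is not given in the sources used here, so reads of such genes cannot be told apart from those of their neighbours. The cells carried high levels of the epithelial markers EPCAM, CDH1, KRT8, KRT18, KRT19 and CLDN7, with CDX1 at 0 in all 8 libraries and CEACAM5 at 0 in 6. Of immune markers, CD68 was at 4.15 to 11.29 CPM (median 5.87), and PTPRC and CD3E were at or near 0. The stromal list summed to 5.11 to 8.45 CPM with DMSO and 10.1 to 17.0 CPM with MS275, nearly all of it COL1A1, with COL3A1, DCN and PECAM1 near 0. The epithelial list summed to at least 3632 CPM. The part of these levels in the results was not tested. In bulk RNA, fewer cells that express a gene cannot be told apart from less RNA per cell.

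Peaks whose gene had RNA above the filter had higher median levels of both marks, and a larger share of them was called lower with MS275. Of the 220 tested peaks with such a gene, 102 (46.4%) were called lower for H3K18cr, with a median log2 change of -0.49, against 183 of 885 (20.7%, median -0.20) without. The median log2 ratio of H3K18cr to input with DMSO was 1.49 and 1.11. Away from coding starts the shares were 40.3% (62 of 154) and 15.1% (105 of 697). The peaks with RNA were also richer in CpG, with a median ratio of 0.44 against 0.27.

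The 6 genes with the highest mean CPM (counts scaled to the depth of each library, but not per length, so that genes are not compared here) were LINC00657, ENSG00000261147, RP11-140H17.1, RP4-734P14.4, LINC00998 and RP11-203J24.9. LINC00657, known as NORAD, is a cytoplasmic RNA that binds Pumilio proteins. It was at 216, 241, 190 and 302 CPM with DMSO and 224, 273, 172 and 342 CPM with MS275, and the groups overlapped. Its RNA differed by 0.08 ± 0.07 on the log2 scale in the fit with the replicate block, with an adjusted p of 0.496 by edgeR. Its peak fell in both marks, by -0.67 ± 0.20 for H3K18cr and -0.98 ± 0.25 for H3K18ac. ENSG00000261147, RP4-734P14.4 and RP11-203J24.9 are annotated as protein coding in GENCODE 44 and overlap coding genes on the same strand, and RP11-140H17.1 overlaps CYB5B on the same strand. LINC00998, whose peak contains the start of the small coding gene SMIM30, was at 43.6, 45.8, 52.0 and 50.1 CPM with DMSO and 41.6, 38.6, 32.3 and 38.6 CPM with MS275. All MS275 libraries lay below all DMSO libraries. Its RNA change of -0.33 ± 0.11 missed the threshold with the block (adjusted p of 0.0632).

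The RNA change with MS275 was tested over all 14961 genes that passed the filter. None of the 222 long noncoding genes passed at adjusted p under 0.05 (edgeR, 0.00668% of all genes called), 6 had an unadjusted p under 0.05, against 987 of all 14961 genes, and DESeq2 called 1. The median SE of the log2 change of these genes was 0.80, so changes of this size were not detectable for many of them. Same-numbered RNA libraries deviated together, most clearly numbers 3 and 4, so a second fit took the number as a block. It called 4 of the 222 lower and 3 higher, where 6.55% of all genes were called lower and 7.83% higher. The shares among the long noncoding genes were smaller, but the median SE of their log2 change in this fit was 0.87. Power was not compared with that for all genes. The median log2 change was 0.07 in this fit, against 0.01 over all genes. DMSO replicate 3 stood apart from the other RNA libraries in a principal component analysis. Without replicate number 3 the block fit called 10, without number 2 it called 2, and without number 1 or number 4 it called 1.

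RP11-65I12.1, which lies within PAX8-AS1 and opposite PAX8, was at 17.0, 14.5, 28.7 and 12.8 CPM with DMSO and 11.2, 6.92, 15.0 and 8.85 CPM with MS275. It fell in all 4 same-numbered pairs, although the groups overlapped. Its log2 change was -0.77 ± 0.15 with the block (adjusted p of 0.00636 by edgeR) and it passed without any number. RP11-277P12.20, opposite KLRK1, fell from 2.09, 5.65, 4.18 and 10.7 CPM to 1.12, 2.55, 2.43 and 4.33 CPM. RP11-395B7.7 and AC093323.3 fell by 0.54 and 0.35 on the log2 scale with the block. All 4 pairs of each gene moved in the same direction.

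RP4-665J23.1 was at 0.45, 1.35, 1.33 and 2.50 CPM with DMSO and 1.91, 4.42, 5.59 and 5.03 CPM with MS275. It rose by 1.72 ± 0.41 on the log2 scale with the block (adjusted p of 0.0157 by edgeR). RP11-58O9.2 was at 2.00, 4.65, 5.51 and 3.497 CPM with DMSO and 3.70, 7.96, 8.82 and 7.66 CPM with MS275, and rose by 0.88 ± 0.25. RP11-91G21.1, which lies opposite U2SURP, had 0, 0, 0 and 1 counts with DMSO and 17, 84, 11 and 15 counts with MS275. It passed the filter on low counts only through the MS275 libraries, and it was the gene called by DESeq2. Apart from RP11-65I12.1, every gene called with the block lost the call when 1 number was left out.

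Of the 7 long noncoding genes called for RNA with the block, 4 also had a peak called for a mark. The share of all genes called for both was not computed. Among tested peaks whose gene had RNA above the filter, 46.4% were called lower for H3K18cr and 31.2% for H3K18ac. No agreement of RNA and marks is read from this count. RP11-277P12.20 and AC093323.3 fell in RNA and in both marks (the peak of AC093323.3 contains a coding start), with H3K18cr changes of -0.68 ± 0.18 and -0.80 ± 0.19. RP11-65I12.1, whose peak lies 908 bp from a coding start of PAX8, fell in RNA and in H3K18ac (-0.69 ± 0.26). RP11-91G21.1, which passed the RNA filter only through its MS275 libraries, was called higher in RNA, and its peak fell in both marks (-0.72 ± 0.17 and -0.87 ± 0.25). That peak contains the start of U2SURP, and no contrast of RNA and marks is drawn from this gene. The peaks of the other 2 rising genes, RP4-665J23.1 and RP11-58O9.2, were not called, with H3K18cr changes of 0.04 ± 0.26 and -0.02 ± 0.16.

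**Figure D4:**
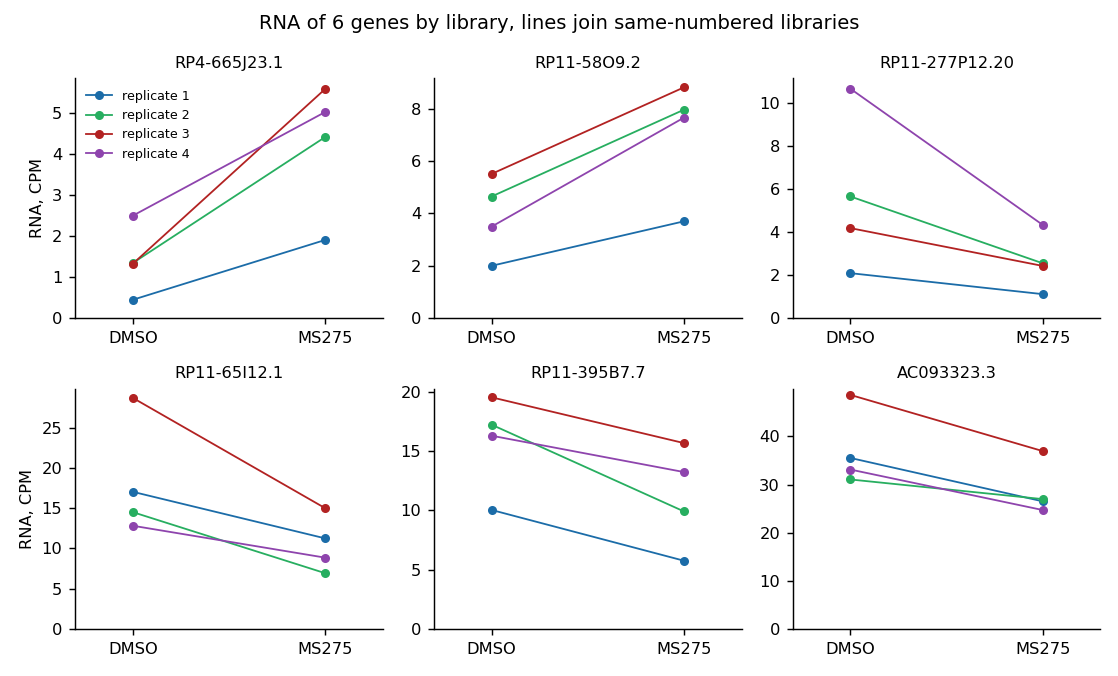
RNA level in CPM (y axis) with DMSO and MS275 (x axis) for the 6 long noncoding genes with a mean count of 50 or more that were called in the fit with the replicate block, where lines join same-numbered libraries. RP4-665J23.1 and RP11-58O9.2 rise in all 4 pairs, and the other 4 genes fall in all 4 pairs.

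Long noncoding RNA genes known from the literature, whatever their names, were taken from a list of 50. All 50 were in the gene table, 9 had one of these promoters and 42 passed the RNA filter. None was called without the block, and with it 1 fell and 2 rose, none of them at these promoters. Over all genes tested, 6.55% fell and 7.83% rose with the block. NEAT1, the scaffold of paraspeckles, rose by 1.02 ± 0.09 and MALAT1, a nuclear speckle RNA, by 0.65 ± 0.09, while LINC00963 fell by 0.38. These are changes with the block, and the groups of each gene overlapped. Without the block NEAT1 changed by 1.10 ± 0.61 and MALAT1 by 0.77 ± 1.06. For both, replicate 3 was the highest library in each treatment (MALAT1 3793 CPM with DMSO and 6690 CPM with MS275). Of the 9 with one of these promoters, 4 fell in H3K18cr (LINC00657, LINC00467, LINC00998 and LINC00941) and 2 in H3K18ac (LINC00657 and LINC00467). Over all peaks, 23% and 16.3% were called lower. LINC00467 had H3K18cr and H3K18ac changes of -0.75 ± 0.18 and -0.78 ± 0.25.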

How the data were processed

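ChIP-seq and RNA-seq of HCT116 cells were used. Per the methods, the authors trimmed reads with Trim Galore, mapped ChIP reads with Bowtie2 to GRCh38, removed duplicates and analysed the reads in SEQMONK. The deposited table, named for MACS peaks, holds 1 peak list for all libraries, and how that list was called is not given in the sources used here. The methods give fewer H3K18cr replicates than the 3 libraries per treatment used here. The chromatin buffer held sodium butyrate, a deacetylase inhibitor, in both treatments. The deposited peak values are log2 of read counts multiplied by 1 factor per library (1 to 1.65), with 0.9 read for 0. Divided by the factor, 100% of values lay within 0.05 of a whole read. The deposited RNA values are raw read counts per gene. The methods name HiSat2 for mouse RNA reads only. For HCT116 RNA no aligner is given in the sources used here beyond the submitters' processing notes, which list Trim Galore 0.4.2, Bowtie2 2.2.5 and TopHat2 2.0.12. The methods give another version of Bowtie2.

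Members and lists were chosen with earlier results of these data known. Peaks with at least 10 scaled reads in 3 libraries were tested with limma 3.58.1 and genes with edgeR 4.0.16 (quasi-likelihood, TMM, filterByExpr), both over whole tables with Benjamini-Hochberg adjustment. DESeq2 1.42.0 was an alternative, R was 4.3.3, and tables were made with Python 3.11.15. Named peaks were the 5 largest falls and rises per mark (adjusted p below 0.05, 50 scaled reads or more on average), or the 5 with the highest H3K18cr reads or ratio to input (at least 10 input reads) with DMSO. Named genes were the 6 with the highest CPM, the 5 largest rises and falls called with the replicate block (50 counts or more on average), and those called with their peak. The repeat share could not be used because the genome sequence is in upper case. RNA numbers were taken to pair the libraries: same-numbered libraries correlated at 0.226, 0.152, 0.434 and 0.460 in their deviations from the group means. Different-numbered libraries correlated at -0.42 to 0.24, the highest being DMSO replicate 2 with MS275 replicate 4. The pairing is therefore less clear for replicate 2. The fits were tested on simulated data with 200 changes of 1 on the log2 scale. The RNA fit recovered 15% of them without the block and 48% with it. The simulated RNA held a deviation shared by same-numbered libraries. The limma fits recovered 72% for H3K18cr and 66.5% for H3K18ac. Alternatives covered scaling, filters, tools, distance limits, the block and single libraries.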

Additional observations from a re-analysis of the deposited data

Results flagged for a closer look

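In 3 of 42 groups of 4 RNA libraries examined for the named genes and the total share of counts, 1 library lay far from the rest by Dixon's test, where chance flags about 1 in 20 groups. LINC00467 was at 23.5 CPM in MS275 replicate 3 and between 9.36 and 11.5 CPM in the other MS275 libraries. RP11-91G21.1 was at 2.04 CPM in MS275 replicate 2, against 0.338 to 0.396 CPM in the other MS275 libraries, and at 0.0181 CPM (1 count) in DMSO replicate 4, against 0 in the other DMSO libraries.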

How the results depend on the processing

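Counts of called promoters depended on scaling and on single libraries, more than the named falls did. For H3K18cr, the 285 falls and 0 rises became 126 and 22 with TMM, 131 and 26 with edgeR, 87 and 2 with DESeq2, and 167 falls without peaks near a coding start. Leaving out 1 library gave 166 to 392 falls and 0 to 2 rises. For H3K18ac, the 169 falls and 2 rises became 65 rises with TMM, 67 with edgeR and 12 with DESeq2, 87 falls without peaks near a coding start and 1 rise with a 500 bp limit. Leaving out 1 library gave 48 to 281 falls and 0 to 4 rises. The median H3K18ac change reversed from -0.22 to 0.02 with TMM (0.0245), edgeR (0.0256) and DESeq2 (0.0223), and with TMM and the block (0.0245). H3K18cr against H3K18ac in DMSO gave 2 promoters with TMM and 0 to 1 without a library, and the interaction gave 0 in every alternative run. With 5 reads added in place of 1, the H3K18cr to input median with MS275 was 0.91 in place of 1.00. RNA calls were 0 without the block, 7 with the replicate block, 1 with DESeq2 and 0 to 10 over the fits that left out libraries. The log2 change of LINC00657 ranged from -0.075 (without MS275 replicate 4) to 0.24 (without MS275 replicate 3). That of RP11-203J24.9, -0.01 in the unblocked fit, became 0.054 (block without number 1), 0.27 (without DMSO replicate 3), -0.34 (without MS275 replicate 3), and 0.09, 0.01 and 0.13 without MS275 replicates 1, 2 and 4. The cause of these changes was not tested.

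The ChIP numbers are not shown to pair the libraries: same-numbered H3K18cr libraries correlated at 0.108, 0.0729 and 0.229, and H3K18ac libraries at -0.207, 0.0464 and -0.134. The paper used a paired t-test for both marks over start sites, without saying which libraries formed the pairs. With the replicate block, H3K18cr gave 317 falls and 2 rises and H3K18ac 23 falls and 0 rises. With the block and TMM, added after seeing the data, they gave 211 falls and 62 rises for H3K18cr and 161 falls and 49 rises for H3K18ac. The block fits of RNA that left out a number were also added after seeing the data. The block changed no call of a named H3K18cr fall, and LINC01516 lost its H3K18ac call (adjusted p 0.113). The median SE at these promoters was 0.20 for H3K18cr and 0.25 for H3K18ac. A change had to be well above its SE to be called, so smaller changes were not detectable at this depth.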
